A study of Mus musculus with 12 samples.

Results

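The genes described here are 44 of the 48709 in each deposited table: 18 genes of the vacuolar-type proton pump (V-ATPase), 24 genes of lysosomal enzymes, cofactors and membrane proteins, and 2 genes of their control, Tfeb and Sqstm1. They were chosen by name, as subunits of the pump and as known lysosomal genes, with earlier results of these data known. Every one was found by its symbol. RNA came from mouse brain astrocytes, taken as cells positive for the astrocyte surface marker ACSA-2, 24 h after transient middle cerebral artery occlusion (tMCAO), which blocks and then reopens an artery of 1 hemisphere. The ipsilateral (occluded) and contralateral hemispheres of 6 C57BL/6 mice, aged between postnatal days 90 and 120, gave 1 library each. All mice carried 1 copy of Gfap-CreERT2, a tamoxifen-dependent Cre recombinase driven by the Gfap promoter, and floxed alleles on both chromosomes. The WT mice (296, 297 and 474) received corn oil and the KO mice (295, 298 and 300) received tamoxifen, so drug and deletion cannot be told apart, and no group lacks the Cre or the occlusion. The sample titles give the genotype as Wild-type or Nhe1 Astro-KO. The 4 groups of 3 libraries are called WT or KO here, contralateral or ipsilateral.

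The V-ATPase is a rotary machine that acidifies lysosomes, endosomes and secretory vesicles. Its V1 sector in the cytosol splits ATP, and its V0 sector in the membrane carries the protons. Acid activates the lysosome's proteases, glycosidases and lipases, and lysosomal membrane proteins such as Lamp1 and Lamp2 line the organelle. The transcription factor Tfeb, held in the cytosol by the kinase mTORC1 when nutrients are plentiful, switches on pump and hydrolase genes through E-box sequences, and Sqstm1 (p62) is a receptor that carries cargo into autophagosomes and is itself degraded in lysosomes. Astrocytes degrade and recycle extracellular material through this system, and microglia, the brain's resident phagocytes, make several of the hydrolases at high levels.

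Total counts were 11187723 to 15780600 per library, and all 44 genes passed the filter on low counts. The libraries stood apart in ways the group labels do not give. Mouse 296 had 8 and 4 counts of Xist and 2733 and 2917 counts of 4 Y-linked genes, while the other mice had at least 9140 counts of Xist and at most 8 of the Y-linked genes; its neutrophil markers averaged 2.64 and 3.79 log2 CPM against at most 1.03 elsewhere. The KO ipsilateral library of mouse 300 had the lowest mean of 12 microglial markers, 3.60 log2 CPM, where the other KO ipsilateral libraries had 6.54 and 6.02. The 12 astrocyte markers summed to 7277 to 21757 TPM (transcript abundance scaled for gene length and library size), so the selected cell type was present in every library; oligodendrocyte markers summed to 4593 to 18709 TPM and the 10 neuronal markers to 22.5 to 44.2. In RNA from a mixed pool of cells, fewer cells of a type and less RNA per cell cannot be told apart.

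Tfeb and related factors bind E-boxes with the core CACGTG, so the start sites of the genes were searched for it. RefSeq promoter windows (GRCm38.p6, 250 bases before to 50 after a transcript start) were found for 37 of the 44 genes, 45 windows in all. The core, a palindrome that reads the same on both strands, stood in a window of 12 of the 37 genes (32.4%), against 8.09% of all 27025 genes with a window; per window it was 26.7% against 7.15% of 32851. The longer palindrome TCACGTGA, which contains the core, stood in windows of 7 genes (15.6% of the 45 windows against 0.974% of all), Atp6v0d1, Atp6v0e, Atp6v1a, Ctsa, Ctsd, Gla and Mcoln1. The other genes with the core were Atp6v0b, Ctsl, Glb1, Lamp1 and Lgmn. Stretches of 80 bases are shown, for the 4 genes with a core that passed a test below and for Lamp1, whose window held the most copies; capitals mark the core, or TCACGTGA where it is complete.

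Atp6v1a: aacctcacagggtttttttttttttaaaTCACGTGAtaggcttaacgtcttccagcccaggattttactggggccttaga
Atp6v0e: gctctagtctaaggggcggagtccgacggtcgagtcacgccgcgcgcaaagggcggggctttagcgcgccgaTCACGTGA
Ctsl: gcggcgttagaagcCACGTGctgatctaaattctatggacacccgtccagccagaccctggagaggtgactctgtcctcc
Glb1: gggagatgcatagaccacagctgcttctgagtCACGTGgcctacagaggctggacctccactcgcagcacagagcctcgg
Lamp1: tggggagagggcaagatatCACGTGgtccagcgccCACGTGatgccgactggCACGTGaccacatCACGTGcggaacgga

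These lie at chr16:44139340-44139419 (minus strand, from position -160 to -81 relative to the start), chr17:26676326-26676405 (plus strand, -70 to 10), chr13:64370691-64370770 (minus strand, -250 to -171), chr9:114400998-114401077 (plus strand, -80 to -1) and chr8:13159081-13159160 (plus strand, -80 to -1). The core begins at -131 in Atp6v1a, at 4 in Atp6v0e, at -236 in Ctsl and at -48 in Glb1, and Lamp1 holds 4 copies, at -61, -45, -28 and -15. A match describes the letters in a window and is neither a bound site nor a cause. Among the 12 genes with the core, the change between hemispheres in WT mice ran from -0.53 to 0.89 on the log2 scale with a median of -0.00, and 2 rose and 2 fell; among the 25 without it, the median was -0.06, with 1 rising and 1 falling. In KO mice the medians were 0.21 and 0.11, and none of the 37 passed. The 7 genes with no window were Atp6v0a2, Atp6v1b2, Atp6v1c1, Atp6v1g1, Atp6v1h, Ctsb and Npc1. They include both genes that passed in KO mice (Atp6v1h and Ctsb) and 3 of the 9 that passed in WT mice, so these are absent from the comparison.

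Levels between genes were compared in deposited TPM, which is scaled for length. Psap, the precursor of the saposins that help enzymes reach membrane lipids, had the highest mean of the 44 over 12 libraries, 3020 TPM, and ranked 23 among all genes. Ctsd (cathepsin D, an aspartic protease) followed with 1571 TPM and Lamp1 with 1212 TPM. Of the pump, the proteolipid Atp6v0c, which forms the rotating ring of V0, was highest with 349 TPM, then the accessory subunit Atp6ap1 with 305 TPM and the V1 stalk subunit Atp6v1g1 with 227 TPM. The lowest of all were the stalk subunit Atp6v1g2 with 12.8 TPM, the galactosidase Gla with 16.3 TPM and Tfeb with 26.9 TPM.

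Spread over libraries was narrow for some pump genes and wide for some hydrolases. Atp6v0c ran from 313 to 386 TPM and Atp6v0d1 from 191 to 224, whereas the cysteine protease Ctss ran from 90.9 to 722 TPM, Ctsz from 265 to 874 and Lgmn from 282 to 918. Summed over the 18 pump genes, levels were 2493 to 2673 TPM in WT contralateral, 2566 to 2664 in WT ipsilateral, 2403 to 2460 in KO contralateral and 2288 to 2502 in KO ipsilateral libraries. The 24 lysosomal genes summed to 9014 to 10093, 10269 to 11672, 8798 to 10195 and 7831 to 13246 TPM in the same order. Pump sums overlapped between hemispheres in both genotypes; lysosomal sums were higher in all 3 ipsilateral than in all 3 contralateral WT libraries and overlapped in KO mice. Deposited counts held only part of the reads that RPKM implies for Atp6v0c (ratio 0.19), Ctsl (0.30), Atp6v1d (0.31), Atp6v1c1 (0.38), Lipa (0.44), Ctsd (0.52), Npc2 (0.60) and Mcoln1 (0.64), so their CPM rests on fewer reads than their RPKM; of the other 36 the lowest ratio was 0.75.

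**Figure D1:**
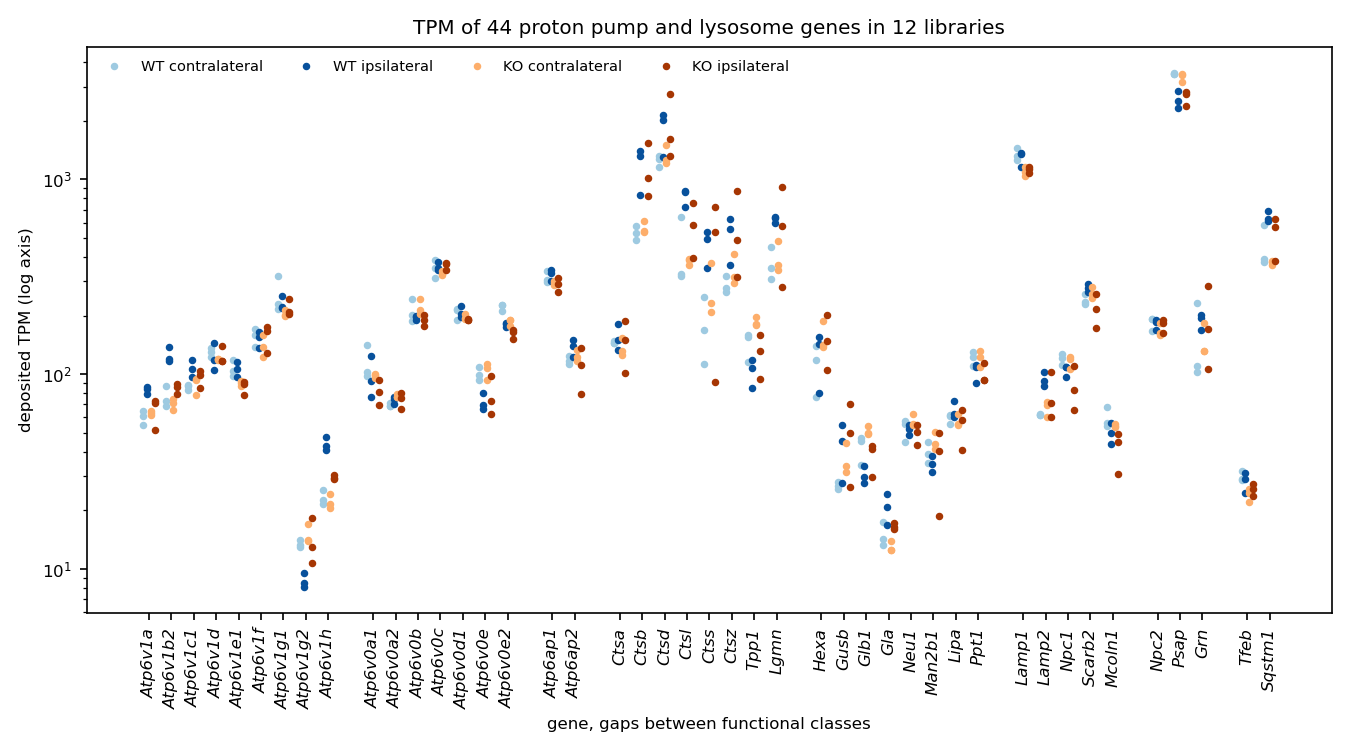
Deposited TPM on a log axis for the 44 genes in the 12 libraries, 1 point per library, coloured by group, with gaps between functional classes. Psap (3020 TPM on average) is at the top and Atp6v1g2 (12.8 TPM) at the bottom, and the proteases Ctss, Ctsz and Lgmn spread more than the pump genes.

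The comparison of hemispheres in WT mice asks how the occlusion changed these genes when the floxed alleles were left in place. Of the 18 pump genes 4 passed edgeR's quasi-likelihood test at an adjusted p below 0.05, 3 V1 subunits higher and 1 V0 subunit lower on the ipsilateral side. Over all 15571 genes tested 19.2% passed, 9.61% higher and 9.54% lower, so 4 of 18 (22.2%) is a share near the background and is not a result about the pump as a whole. The median log2 fold change was -0.05 over the pump and -0.06 over all genes. What differed was which subunits changed: Atp6v1h, Atp6v1b2 and Atp6v1a rose 1.34 to 1.83-fold, and 5 of the other 6 V1 subunits had values below 0 without passing. Levels below are CPM, read counts scaled to the library total with TMM factors, listed for WT mice 296, 297 and 474 and KO mice 295, 298 and 300.

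Atp6v1h encodes the regulatory H subunit that controls ATP splitting when V1 meets V0 (ENSMUSG00000033793, chromosome 1, 5070018 to 5162529 on the plus strand, mm10). Its level was 77.7, 65.2 and 68.0 CPM contralaterally and 121, 144 and 120.5 CPM ipsilaterally in WT mice, and 57.2, 67.1 and 60.4 contralaterally and 88.7, 85.1 and 105 CPM ipsilaterally in KO mice. Every ipsilateral library exceeded every contralateral one within a genotype, and the KO ipsilateral libraries lay below all WT ipsilateral ones. In WT mice it rose 1.83-fold (log2 fold change 0.87 ± 0.13, adjusted p = 0.00198; SE in all such values), and this was the one call of the 9 that held in all 9 fits leaving out a library or mouse and in all 10 other alternatives.

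Atp6v1b2 is the B subunit of the ATP-splitting head (ENSMUSG00000006273, chromosome 8, 69088646 to 69113711 on the plus strand). It read 146, 114 and 118 CPM contralaterally and 223, 194 and 183 CPM ipsilaterally in WT mice, with 98.8, 112 and 109 contralaterally and 142, 127 and 168 CPM ipsilaterally in KO mice. It was higher ipsilaterally in 3 of 3 WT mice and rose 1.59-fold (0.67 ± 0.15, adjusted p = 0.00969). The catalytic A subunit Atp6v1a (ENSMUSG00000052459, chromosome 16, 44085402 to 44139705 on the minus strand) read 105, 115 and 119.8 contralaterally and 146, 162 and 147 CPM ipsilaterally in WT mice, and 106, 108 and 112 contralaterally and 128, 133 and 115 CPM ipsilaterally in KO mice. The WT groups did not overlap and the rise was smaller, 1.34-fold (0.42 ± 0.11, adjusted p = 0.0212). Without both libraries of mouse 297 the adjusted p was 0.0934 for Atp6v1b2 and 0.155 for Atp6v1a, and without mouse 474 it was 0.0507 and 0.0622.

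The other V1 subunits did not pass in WT mice. Atp6v1c1, which takes part in the reversible joining of V1 and V0, had 0.27 ± 0.12, adjusted p = 0.133, with all 3 ipsilateral libraries above the contralateral ones. The rotor subunits Atp6v1d and Atp6v1f had -0.14 ± 0.12, adjusted p = 0.468 and -0.08 ± 0.18, adjusted p = 0.773, and the stalk subunit Atp6v1e1 had -0.06 ± 0.13, adjusted p = 0.78. The paralogues Atp6v1g1 and Atp6v1g2 encode the G subunit of the stalk, the latter being known as the neuronal form. Atp6v1g1, the V1 gene of highest TPM, read 102, 66.8 and 77.4 CPM contralaterally and 79.0, 70.0 and 66.3 CPM ipsilaterally (-0.19 ± 0.15, adjusted p = 0.394), overlapping between sides. Atp6v1g2 read 10.5, 9.68 and 11.5 contralaterally and 6.14, 7.41 and 6.14 CPM ipsilaterally (-0.69 ± 0.26, adjusted p = 0.0832), lower in all 3 WT mice with no overlap. Its gene overlaps Nfkbil1 on the other strand, and whether counting used strand is not stated. Among genes that passed, the same limit holds for Atp6v1h (Rgs20), Atp6v1b2 (Slc18a1), Ctsb (Fdft1) and Ctsl (Gm47123). Ctsl also overlaps Gm49230 on the same strand.

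In the V0 sector only Atp6v0e passed, and it fell. Atp6v0e and Atp6v0e2 are paralogues of a small membrane subunit. Atp6v0e (ENSMUSG00000015575, chromosome 17, 26663231 to 26699647 on the plus strand) read 112, 95.6 and 98.5 CPM contralaterally and 79.5, 70.6 and 62.6 CPM ipsilaterally in WT mice (-0.52 ± 0.15, adjusted p = 0.0285), lower ipsilaterally in 3 of 3 mice. KO mice had 87.2, 105 and 100.5 contralaterally and 70.7, 96.4 and 74.7 CPM ipsilaterally, also lower in 3 of 3 but with overlapping groups (-0.27 ± 0.15, adjusted p = 0.252). Atp6v0e2 read 170.2, 161 and 164 contralaterally and 131, 135 and 120.0 CPM ipsilaterally in WT mice without overlap (-0.36 ± 0.13, adjusted p = 0.0693; 0.0311 with DESeq2 and 0.0485 on log2(TPM + 1)), and 129, 128 and 122 contralaterally and 108, 118 and 148 CPM ipsilaterally in KO mice. The fall of Atp6v0e was not called without mouse 297 (adjusted p = 0.129) or mouse 474 (0.133), nor on the log2(TPM + 1) scale (0.0653).

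Atp6v0a1 and Atp6v0a2 encode alternative forms of the large subunit that forms the proton path and helps direct the pump to its membrane. Atp6v0a1 read 292, 199.7 and 208 contralaterally and 248, 188 and 145 CPM ipsilaterally in WT mice (-0.27 ± 0.20, adjusted p = 0.357), and mouse 296 was highest on both sides. Atp6v0a2 hardly varied, with 149.9, 136 and 149 contralaterally and 145, 156 and 149 CPM ipsilaterally (0.05 ± 0.10, adjusted p = 0.787). The ring subunits Atp6v0b and Atp6v0c had -0.17 and 0.13, Atp6v0d1, which links rotor and ring, had -0.05, and none passed. Atp6v0c read 65.7, 56.0 and 77.0 CPM contralaterally and 66.5, 82.9 and 68.5 CPM ipsilaterally. Of the accessory subunits, Atp6ap1 (Ac45) read 285, 274 and 332 contralaterally and 278, 323 and 291 CPM ipsilaterally (0.00) and Atp6ap2, the prorenin receptor, had 0.17. In all, 7 of 18 pump genes had WT groups that did not overlap, against 34% of all genes.

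Of the 24 lysosomal genes 5 passed in WT mice, again a share (20.8%) near the background of 19.2%. Ctsb, Ctsl and Lamp2 rose and Glb1 and Psap fell. The 8 proteases had a median log2 fold change of 0.75, with 7 above 0, beside medians of 0.01 for the 8 glycosidases, lipases and thioesterases, -0.11 for the 5 membrane proteins and -0.06 for all genes. With the mouse as a block, which uses the pairing of the 2 hemispheres, 9 of the 24 passed against 29.8% of all genes (14.7% higher, 15.1% lower), the proteases Ctsz, Ctss and Lgmn higher and Tpp1 lower being added. Without mouse 296, which stood apart, 4 pump and 7 lysosomal genes passed, beside 3288 of all 15715 genes tested in that fit. Psap was lost (adjusted p = 0.0502), and Ctsd and Gla were among those added.

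Ctsb (cathepsin B; ENSMUSG00000021939, chromosome 14, 63122462 to 63145923 on the plus strand) had the largest change of those that passed. It read 863, 685 and 818 CPM contralaterally and 1198, 2057 and 1813 CPM ipsilaterally in WT mice, a 2.14-fold rise (1.10 ± 0.23, adjusted p = 0.00744), smallest in mouse 296. In KO mice it read 825, 733 and 729 contralaterally and 2186, 1461 and 1427 CPM ipsilaterally. No ipsilateral library of either genotype overlapped the contralateral ones. Ctsl (cathepsin L; ENSMUSG00000021477, chromosome 13, 64359337 to 64370890 on the minus strand) read 399, 191 and 205 contralaterally and 521, 534 and 413 CPM ipsilaterally in WT mice (0.89 ± 0.26, adjusted p = 0.0347), mouse 296 being high already on the contralateral side, and 218, 218 and 207 contralaterally and 446, 348 and 286 CPM ipsilaterally in KO mice. It also passed on the log2(TPM + 1) scale. It did not pass in 6 of the 9 fits that left out a library or mouse.

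The remaining proteases did not pass in the fit without a block. Ctsd, the protease of highest TPM, read 495, 419 and 474 contralaterally and 490.5, 783 and 788 CPM ipsilaterally in WT mice (0.57 ± 0.24, adjusted p = 0.112); mouse 296 had nearly equal levels on both sides, and without that mouse the log2 fold change was 0.82 with an adjusted p of 0.0482. Ctss (cathepsin S, typical of phagocytes) read 107, 68.2 and 49.9 contralaterally and 204, 226 and 138 CPM ipsilaterally (1.34 ± 0.52, adjusted p = 0.0951; 0.0303 with the mouse as a block). Ctsz read 120.5, 119 and 149 contralaterally and 159.8, 281 and 231 CPM ipsilaterally (0.79 ± 0.29, adjusted p = 0.0732; 0.0152 with the block), and the asparaginyl protease Lgmn read 331, 242 and 234 contralaterally and 446, 462 and 404 CPM ipsilaterally (0.70 ± 0.29, adjusted p = 0.107; 0.0191 with the block). All 3 were higher ipsilaterally in 3 of 3 WT mice without overlap. Tpp1, a tripeptidyl peptidase, went the other way, from 189, 238 and 265 to 133, 172 and 177 CPM, lower in 3 of 3 (-0.52 ± 0.17, adjusted p = 0.0504; 0.00925 with the block). Ctsa, a carboxypeptidase that also protects Glb1 and Neu1, had 0.04.

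Among the other enzymes, Glb1 (beta-galactosidase; ENSMUSG00000045594, chromosome 9, 114401076 to 114474898 on the plus strand) fell from 25.7, 31.6 and 36.3 CPM to 19.9, 21.7 and 23.3 CPM in WT mice (-0.53 ± 0.15, adjusted p = 0.0269), lower in each mouse. It held in 3 of the 9 fits that left out a library or mouse and was not called on TPM (adjusted p = 0.0841), and its exons overlap Tmppe on the same strand. Hexa (hexosaminidase A), the class's highest in TPM, read 45.0, 65.1 and 84.1 contralaterally and 45.5, 83.4 and 84.3 CPM ipsilaterally, with the largest gap in mouse 297 and the lowest level in mouse 296 (0.13 ± 0.28, adjusted p = 0.769). Gusb (beta-glucuronidase) had 0.62 ± 0.28, adjusted p = 0.149, and Gla had 0.41 ± 0.18, adjusted p = 0.135, or 0.67 with an adjusted p of 0.0298 without mouse 296. The mannosidase Man2b1, the thioesterase Ppt1, the sialidase Neu1 and the lipase Lipa lay between -0.28 and 0.09, and none of these passed.

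Of the membrane proteins only Lamp2, which is needed for the fusion of autophagosomes with lysosomes, rose (ENSMUSG00000016534, chromosome X, 38401357 to 38456454 on the minus strand). It read 186, 175 and 195 CPM contralaterally and 253, 306 and 256 CPM ipsilaterally in WT mice (0.55 ± 0.16, adjusted p = 0.0311), and 165, 188 and 198 contralaterally and 202, 295 and 212 CPM ipsilaterally in KO mice. Its partner Lamp1, the membrane gene of highest TPM, read 1226, 996 and 1149.5 contralaterally and 1115, 1124 and 895 CPM ipsilaterally with overlap (-0.11 ± 0.15, adjusted p = 0.656). The cholesterol exporter Npc1, the calcium channel Mcoln1 and Scarb2, which carries glucocerebrosidase to lysosomes, had -0.24, -0.31 and 0.16. Psap (ENSMUSG00000004207, chromosome 10, 60277627 to 60302597 on the plus strand) fell from 3059, 2838 and 3117 CPM to 2389, 2164 and 1858 CPM in WT mice (-0.49 ± 0.15, adjusted p = 0.0355), in 3 of 3 mice and without overlap. That call held in 1 of the 9 fits that left out a library or mouse. Npc2, the soluble partner of Npc1, had -0.06 and Grn, the lysosomal growth factor progranulin, had 0.29 ± 0.33, adjusted p = 0.579.

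Neither regulator passed in WT mice. Sqstm1 read 617, 390.2 and 413 CPM contralaterally and 629, 655 and 669 CPM ipsilaterally (0.46 ± 0.22, adjusted p = 0.169); mouse 296 was high on both sides, and the groups did not overlap. Tfeb read 56.5, 48.3 and 53.4 contralaterally and 53.9, 50.9 and 40.3 CPM ipsilaterally (-0.13 ± 0.16, adjusted p = 0.609), overlapping between sides.

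**Figure D2:**
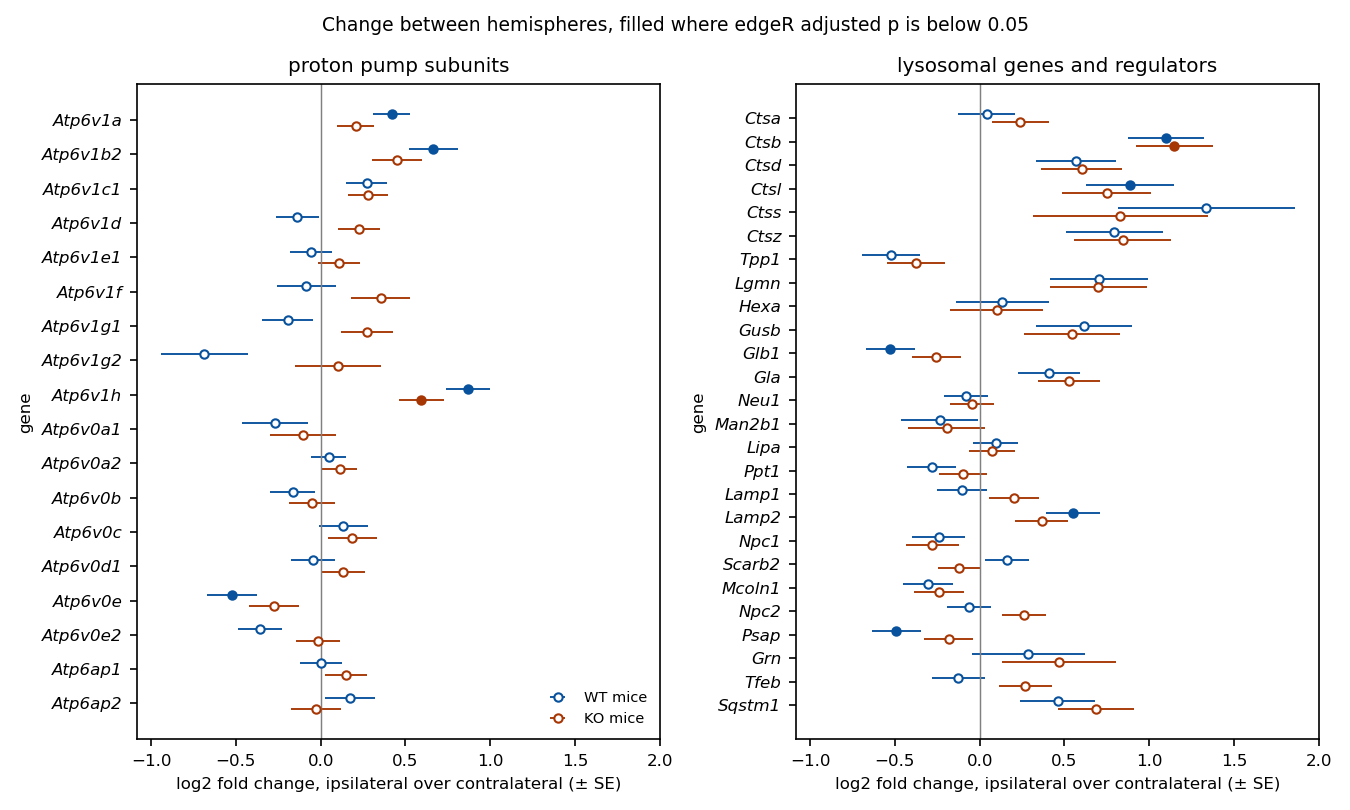
Log2 fold change of ipsilateral over contralateral libraries (± SE, edgeR) for the pump genes on the left and the lysosomal genes and regulators on the right, WT mice in blue and KO mice in brown; filled points have an adjusted p below 0.05. Atp6v1h (0.87 and 0.59) and Ctsb (1.10 and 1.15) are filled in both genotypes, and 7 other genes are filled in WT mice.

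**Figure D3:**
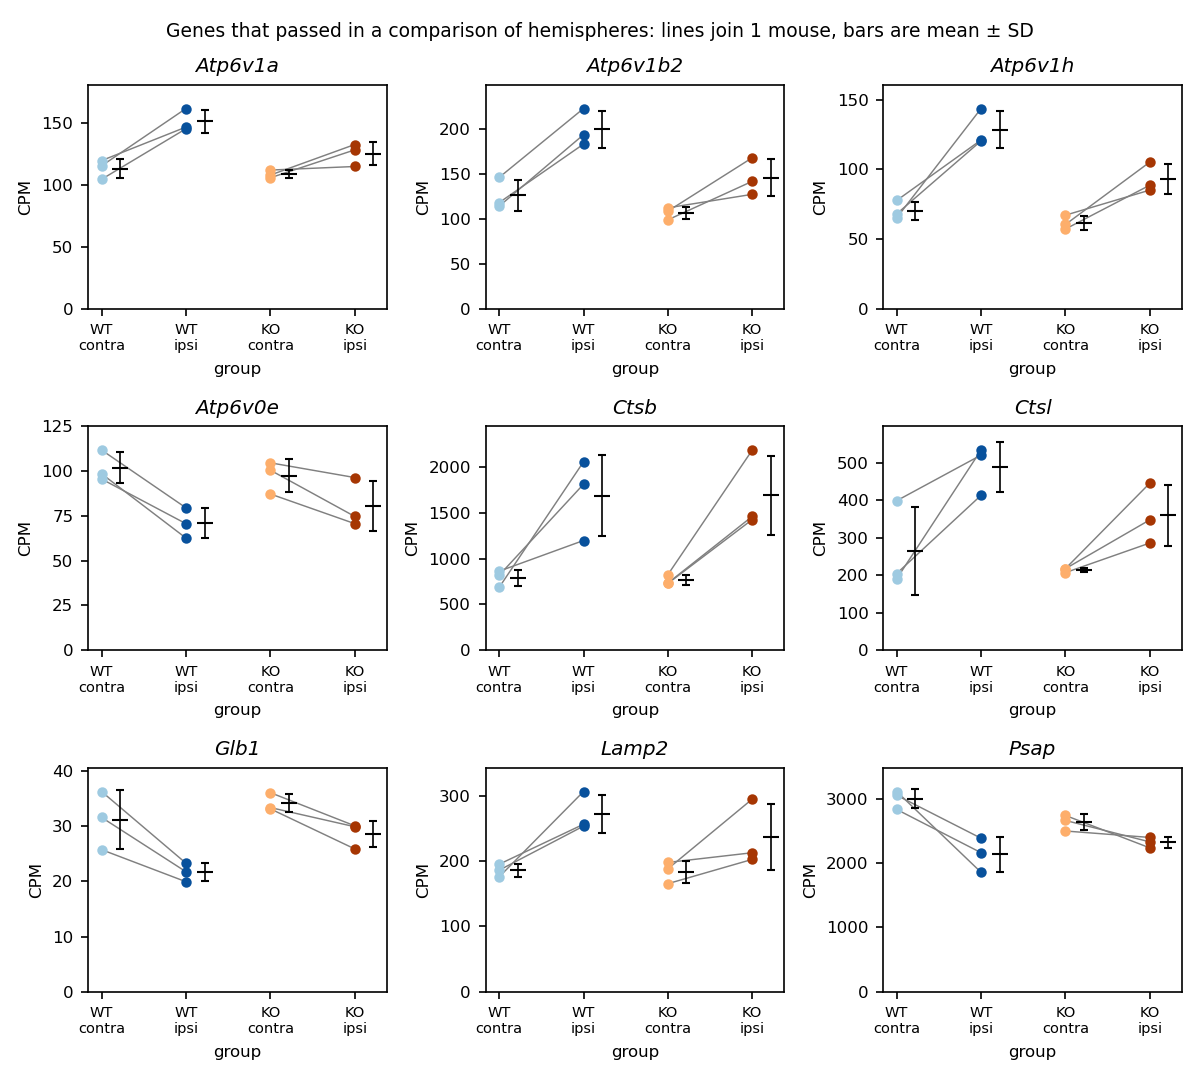
CPM of the 9 genes that passed in a comparison of hemispheres, with 1 point per library, lines joining the hemispheres of a mouse and bars for the mean ± SD of 3 libraries. In WT mice the 2 sides do not overlap for any of the 9, and Atp6v0e, Glb1 and Psap go down where the others go up.

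In KO mice 2 of the 44 genes passed between hemispheres, Atp6v1h and Ctsb, both higher, while 6.29% of all genes passed (5.45% higher, 0.841% lower). Atp6v1h rose 1.51-fold (0.59 ± 0.13, adjusted p = 0.0246) and Ctsb 2.22-fold (1.15 ± 0.23, adjusted p = 0.0176), each in 3 of 3 mice. The shares, 1 of 18 pump genes (5.56%) and 1 of 24 lysosomal genes (4.17%), are near the background. With the mouse as a block 2 pump genes and 4 lysosomal genes passed against 16% of all genes (10.9% higher, 5.1% lower): Atp6v1b2 (adjusted p = 0.0356), Ctsl (0.045) and Ctsz (0.0274) higher and Tpp1 (0.0455) lower were added. DESeq2 added Atp6v1b2, Ctsl, Ctsz and Sqstm1, all higher, beside 13.2% of all genes (9.93% higher, 3.29% lower). Both calls were lost without some mice: the adjusted p without both libraries of mouse 300 was 0.285 for Atp6v1h and 0.15 for Ctsb, and without mouse 295 it was 0.177 and 0.161.

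On CPM the V1 genes leaned to the ipsilateral side in KO mice. All 9 had a log2 fold change above 0, from 0.10 for Atp6v1g2 to 0.59 for Atp6v1h, beside 7629 of all 15571 genes. On CPM 8 of them, all but Atp6v1g2, were higher ipsilaterally in 3 of 3 mice, and 7 of the 9 did not overlap between sides. On deposited TPM, Atp6v1a (64.4 to 51.6), Atp6v1c1 (92.8 to 84.4), Atp6v1d (119 to 117) and Atp6v1e1 (92.0 to 77.8) fell in mouse 300. Atp6v1b2, Atp6v1f, Atp6v1g1 and Atp6v1h stayed higher in 3 of 3 mice on TPM. On the log2(TPM + 1) scale 7 of the 9 were above 0 and their median was 0.092 in place of 0.27, while the median of all genes was -0.17 in place of -0.01. For all 18 pump genes the medians were -0.034 and 0.14, both above the median of all genes on the same scale. Atp6v1g1 read 62.1, 57.5 and 58.4 CPM contralaterally and 73.0, 65.1 and 77.1 CPM ipsilaterally (0.27 ± 0.15, adjusted p = 0.267). Atp6v1g2 read 12.2, 9.92 and 10.2 contralaterally and 8.0, 9.85 and 16.9 CPM ipsilaterally (0.10 ± 0.25, adjusted p = 0.828), the ipsilateral library of mouse 300 being the highest of all 12. In V0, Atp6v0a1 read 186, 185 and 179.6 contralaterally and 159, 185 and 168 CPM ipsilaterally, Atp6v0a2 read 151, 145 and 147 contralaterally and 161, 153 and 164 CPM ipsilaterally, and Atp6v0c read 62.4, 62.7 and 59.3 contralaterally and 60.5, 75.6 and 73.9 CPM ipsilaterally, with log2 fold changes of -0.10, 0.11 and 0.19. Atp6ap1 read 247, 257 and 256 contralaterally and 263, 286 and 294 CPM ipsilaterally (0.15). Over the pump, 9 of 18 genes had KO groups that did not overlap, beside 38.8% of all genes.

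The lysosomal genes of KO mice had a median log2 fold change of 0.22, beside -0.01 for all genes. Of these 24 genes 11 did not overlap between sides, beside 38.8% of all genes. Ctsl had 0.75 ± 0.26, adjusted p = 0.103 and Ctsd read 535, 433 and 456 CPM contralaterally and 986, 625 and 549 CPM ipsilaterally (0.60 ± 0.24, adjusted p = 0.139), both higher in 3 of 3 mice. Glb1 read 36.1, 33.4 and 33.1 contralaterally and 30.1, 29.9 and 25.9 CPM ipsilaterally and Psap 2744, 2666 and 2502 contralaterally and 2239, 2332 and 2402 CPM ipsilaterally. Both were lower ipsilaterally in 3 of 3 mice without overlap, with -0.26 ± 0.14, adjusted p = 0.275 and -0.18 ± 0.15, adjusted p = 0.439. Lamp1 read 882, 831 and 801 contralaterally and 926, 912 and 1058 CPM ipsilaterally (0.20 ± 0.15, adjusted p = 0.393), and Lamp2 had 0.37 ± 0.16, adjusted p = 0.17. Hexa read 100.2, 73.3 and 76.1 contralaterally and 112, 83.4 and 71.9 CPM ipsilaterally (0.10). Sqstm1 read 360.1, 345 and 367 contralaterally and 629, 387 and 706 CPM ipsilaterally (0.68 ± 0.22, adjusted p = 0.0862), with mouse 298 changing least, and Tfeb read 41.4, 35.3 and 39.9 contralaterally and 43.5, 40.4 and 56.9 CPM ipsilaterally (0.27 ± 0.16, adjusted p = 0.291).

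Microglial markers differed between libraries, and some lysosomal genes, not all, were lowest in the library where these markers were lowest. The 12 markers summed to 584 to 793 TPM in WT contralateral, 1353 to 1989 in WT ipsilateral, 1013 to 1779 in KO contralateral and 435 to 3490 in KO ipsilateral libraries, and none of the 12 was at 0 in any library; none passed in any of the 5 tests. In the KO ipsilateral library of mouse 300, where that sum was lowest, Ctss was 45.5 CPM and the lowest of 12 libraries, against 293 and 221 CPM in mice 295 and 298. Of the 24 lysosomal genes 6 had their lowest level there (25%, Ctss, Man2b1, Lipa, Npc1, Scarb2 and Mcoln1). So did 1 of the 18 pump genes (Atp6ap2), beside 9.77% of all genes. Ctsb, Ctsd, Ctsz, Gusb and Ctsl ranked 8, 8, 7, 7 and 6 from the lowest of 12 there. Man2b1 read 96.4, 82.4 and 79.2 contralaterally and 98.5, 80.7 and 45.8 CPM ipsilaterally in KO mice, and Gusb read 57.5, 43.4 and 41.3 contralaterally and 95.2, 68.1 and 43.9 CPM ipsilaterally. Without that library the KO log2 fold change was 1.27 for Ctss in place of 0.83, 0.97 for Lgmn in place of 0.70, and 1.24 for Ctsb in place of 1.15; only Ctsb passed (adjusted p = 0.0334), and Atp6v1h had 0.48 with an adjusted p of 0.0953. Among WT contralateral libraries Ctss was highest in mouse 296 (6.74 log2 CPM). In that group the 2 measures of the microglial markers disagreed for mouse 296. Their mean was lowest there (4.26 log2 CPM), while their summed TPM was highest (793, against 707 in mouse 297 and 584 in mouse 474). The part of microglia in these changes was not tested.

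**Figure D4:**
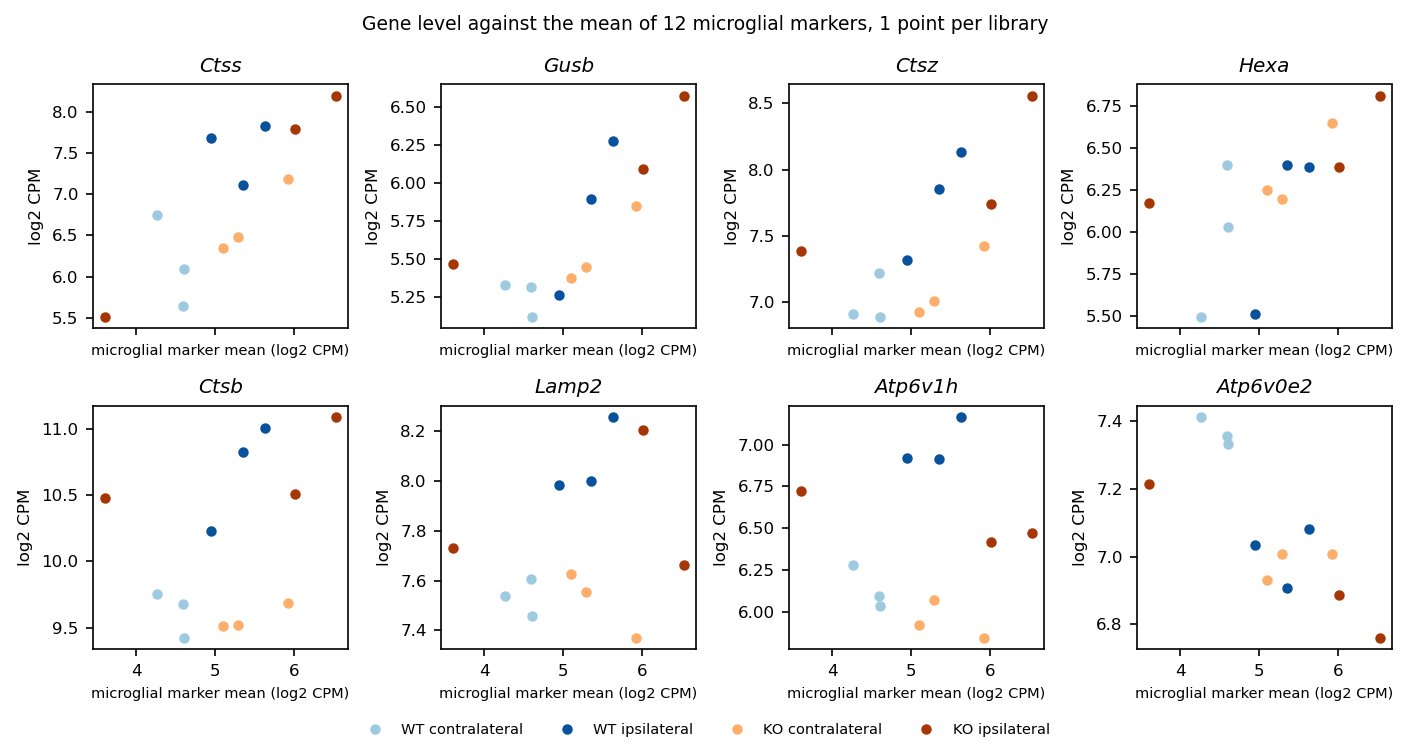
Log2 CPM of 8 genes, chosen after their values were seen, against the mean log2 CPM of 12 microglial markers, 1 point per library, coloured by group. Ctss, Gusb and Ctsz are highest where the microglial mean is highest (6.54), while the ipsilateral WT libraries stand highest for Atp6v1h and the WT contralateral ones for Atp6v0e2.

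Other genes of the same organelle were read from lists of related genes, each as a count beside the 19.2% of all genes that passed in WT mice. Of 32 further hydrolases and cofactors 3 rose and 8 fell, a share of 34.4%, with a median of -0.22: Ctsf, a cysteine protease (-1.33, adjusted p = 0.00222), the ganglioside cofactor Gm2a (-0.93, adjusted p = 0.00321) and the glucosidase Gaa (-0.63, adjusted p = 0.00324) were among those that fell. Of 18 further membrane proteins 2 rose, the tetraspanin Cd63 (1.11, adjusted p = 0.00617) and the phagocyte protein Cd68 (2.06, adjusted p = 0.0167), and the channels Tpcn1 (-0.94, adjusted p = 0.00296) and Tmem175 (-0.61, adjusted p = 0.0275) fell. Of 9 sorting genes the receptor M6pr rose (0.40, adjusted p = 0.027) and Gnptg, of the enzyme that adds the mannose 6-phosphate tag, fell (-0.33, adjusted p = 0.0454). In the list of Tfeb-related factors and the mTORC1 machinery 1 of 16 passed, Flcn, which controls those factors (-0.74, adjusted p = 0.00322). Of 17 autophagy genes Calcoco1 (-0.95, adjusted p = 0.00376) and Atg9a (-0.45, adjusted p = 0.0365) fell, and of 4 galectins that mark damaged lysosomes Lgals9 rose (0.90, adjusted p = 0.0152). Of 12 other pump subunits and assembly factors none passed, with 3 at an unadjusted p below 0.05, beside 5321 of all 15571 genes. Falls among the further hydrolases stood beside falls of 9 of 12 astrocyte markers in the same comparison, whose part was not tested.

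In KO mice fewer of these genes passed, against 6.29% of all. Cd63 rose (0.93, adjusted p = 0.0303) and so did the carboxypeptidase Prcp (0.71, adjusted p = 0.0495), while Idua (-0.64, adjusted p = 0.0324) fell. The difference of the change between genotypes passed for none of the genes tested.

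The comparison of KO with WT contralateral libraries, which asks whether tamoxifen and deletion went with a difference away from the occlusion, found none of the 44 genes past the test, where 1.5% of all genes passed (0.0835% higher, 1.41% lower). By edgeR 3 pump genes, 1 lysosomal gene and 1 regulator had an unadjusted p below 0.05 (Atp6v1g1, Atp6v0e2, Atp6v1e1, Lamp1 and Tfeb), beside 2230 of all 15571 genes. DESeq2 called 1 gene, Lamp1, lower (-0.42, adjusted p = 0.041), beside 4.24% of all genes (0.778% higher, 3.47% lower). All 5 genes below 0.05 by edgeR were lower in KO mice: Atp6v1g1 had -0.47 ± 0.15, adjusted p = 0.182, Lamp1 -0.42 ± 0.15, adjusted p = 0.219 and Tfeb -0.44 ± 0.16, adjusted p = 0.227 by edgeR, and the groups of each did not overlap. By edgeR, values were below 0 for 16 of 18 pump genes and 16 of 24 lysosomal genes, beside 7810 of 15571 genes. The medians were -0.20 and -0.04 beside -0.00 for all genes. The groups did not overlap for 7 pump and 5 lysosomal genes, beside 24.5% of all genes. On TPM the median of all genes was 0.12 here. By mean TPM, some genes below 0 by edgeR were higher in KO libraries. In the pump these were Atp6v1a (60.0 in WT, 62.9 in KO), Atp6v1c1, Atp6v0b, Atp6v0e and Atp6ap2. Of the lysosomal genes they were Ctsb (532 and 563), Lgmn, Neu1, Lamp2 and Scarb2, and the other signs were the same. Markers of several cell types stood apart by genotype here. Oligodendrocyte markers summed to 4593 to 6821 TPM in KO against 13173 to 15022 in WT libraries, with 5 of 10 passing as lower. Ependymal and choroid plexus markers summed to 3510 to 6915 against 10997 to 19841 TPM, with 1 of 7 passing as lower. Microglial markers summed to 1013 to 1779 against 584 to 793 TPM, and astrocyte markers to 19010 to 21757 against 12274 to 16927 TPM, and none of these passed singly. The part of these cell types in the values was not tested.

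Between KO and WT ipsilateral libraries, a comparison of the genotypes after occlusion, again none of the 44 passed by edgeR, beside 6.31% of all genes (4.33% higher, 1.98% lower). In that fit 4 pump genes and 3 lysosomal genes had an unadjusted p below 0.05, beside 3391 of all 15571 genes. Atp6v1h was nearest, with -0.47 ± 0.13, adjusted p = 0.0548, and its KO libraries (88.7, 85.1 and 105 CPM) all lay below the WT ones (121, 144 and 120.5 CPM). It passed with upper-quartile scaling (adjusted p = 0.0466; 6.02% of all genes), a stricter filter (0.0487; 6.89%), DESeq2 (0.0108), log2(TPM + 1) (0.0331; 4.15%) and without the KO library of mouse 300 (0.0425), so the call turns on the processing. Atp6v1b2 had -0.46 ± 0.15, adjusted p = 0.0875, also without overlap (0.0327 on log2(TPM + 1)), and Atp6v1g2 0.81 ± 0.26, adjusted p = 0.0862, higher in KO mice. DESeq2 called these 3 pump genes, beside 11.3% of all genes (7.04% higher, 4.23% lower). Without the KO library of mouse 300, which was the highest for Atp6v1g2, that gene had 0.43 with an adjusted p of 0.279. That library also had the highest neuronal marker sum of the 12, 44.2 TPM, and the part of this was not tested. Of the lysosomal genes, Glb1 had 0.40 ± 0.15, adjusted p = 0.131 and Tpp1 0.39 ± 0.17, adjusted p = 0.205, the 2 whose groups did not overlap; of the pump 4 did not, and of all genes 23.9%. Of the related lists Gm2a (0.83, adjusted p = 0.0143), Smpd1 (0.62, adjusted p = 0.0456) and Tpcn1 (0.91, adjusted p = 0.00969) were higher in KO mice. In the same comparison 9 of 12 astrocyte and 3 of 8 pericyte or smooth muscle markers passed as higher, and 3 of 10 oligodendrocyte and 2 of 7 ependymal or choroid plexus markers as lower; their part was not tested.

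The test of whether the change between hemispheres differed with genotype passed for none of the 44 genes and for none of the 15571 by edgeR (0%). In the edgeR fit without a block, of the 44, Atp6v1g1 alone had an unadjusted p below 0.05 (0.47 ± 0.21, adjusted p = 0.948, KO change minus WT change), beside 763 of all 15571 genes. With the mouse as a block, Atp6v1g1 (0.45 ± 0.16, adjusted p = 0.447) and Atp6v1d (0.37 ± 0.15, adjusted p = 0.484) had an unadjusted p below 0.05, and neither passed. DESeq2 called none of the 44, beside 0.129% of all genes. The median difference was 0.16 over the pump, 0.05 over the lysosomal genes and 0.06 over all genes; on TPM the pump median was -0.052 and that of all genes -0.16. For Atp6v1h the difference was -0.27 ± 0.18 and for Ctsb 0.05 ± 0.32. The calls that passed in WT mice and not in KO mice are therefore not shown to differ between genotypes.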

How the data were processed

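RNA was sequenced from 12 libraries, 2 hemispheres of 6 mice. The authors deposited 1 table per library with whole-number read counts, TPM and RPKM for 48709 genes, per the file headers. The submitters' processing notes name mm10, and aligner, counter and strand are not given in the sources consulted. Counts were tested, deposited TPM served for levels between genes, and deposited RPKM only for the check of counts against length. Counts relative to RPKM-implied reads lay within 2% of their median for 64.8% of the 13691 genes reaching 50 counts. Within groups no libraries were duplicates (chi-square per degree of freedom 11.3 to 70.6). The members and lists were chosen with earlier results of these data known, so they give no independent support.

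Counts were fitted in R 4.3.3 with edgeR 4.0.16: filterByExpr (minimum count 10), which left 15571 genes, TMM, and a robust quasi-likelihood model over 12 libraries with 4 group terms (8 residual degrees of freedom). P-values of 5 contrasts were adjusted by Benjamini-Hochberg and called at 0.05. The SE is the log2 fold change divided by the root of F. The procedure was tested on simulated data. CPM means carry SD over 3 libraries, and log2 CPM a prior count of 2. Full values are given for members that passed, the member of highest TPM in each class and 3 paralogue pairs. Related genes are named where they passed, at most 4 per list and contrast by smallest adjusted p, and other genes where a check turns on them. Coordinates are from GENCODE vM21.

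Alternatives were RLE and upper-quartile scaling, DESeq2 1.42.0, limma-voom and limma-trend (limma 3.58.1) on log2(TPM + 1) and log2(TPM + 0.1) with genes kept at a TPM of at least 1 in 3 libraries, no filter beyond 1 count, 1 CPM in all libraries of a group, only the groups compared, the mouse as a block, and each library and mouse left out. Pairing comes from the animal number in the labels: after removal of group means the libraries of mice 296, 297, 474, 295, 298 and 300 correlated at 0.63, 0.02, 0.36, 0.29, 0.35 and 0.16 over 15571 genes. Replicates are different mice as numbered in the labels. Some planned results are not reported here.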

Additional observations from a re-analysis of the deposited data

Results flagged for a closer look

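Atp6v1d, a rotor subunit of V1, was lower ipsilaterally in 3 of 3 WT mice and higher in 3 of 3 KO mice on log2 CPM. On deposited TPM this pattern was absent. There Atp6v1d rose in WT mouse 474 (130 to 144) and fell in KO mice 298 (120 to 116) and 300 (119 to 117). Its mean change per mouse in KO mice exceeded that in WT mice by 0.37 on the log2 CPM scale. Scarb2, the lysosomal carrier of glucocerebrosidase, was higher in 3 of 3 WT and lower in 3 of 3 KO mice on either scale. Its difference was -0.28 on log2 CPM. Each was noted because, on log2 CPM, all mice of a genotype moved one way and all of the other genotype the other way. How many of all genes do so was not counted. The test of the difference itself (edgeR) gave an adjusted p of 0.948 for both, so neither passed.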

How the results depend on the processing

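All 4 pump and 5 lysosomal calls in WT mice kept their direction under every alternative run. Counts of calls moved as follows in WT mice: only the groups compared gave 2 pump genes and 1579 genes in all; 8 lysosomal genes passed with DESeq2, 3 with no filter and 3 on either TPM scale; the mouse as a replicate block gave 9 lysosomal genes and 4641 in all. In KO mice DESeq2 gave 2 pump, 3 lysosomal and 2057 of all genes, only the groups compared 2 lysosomal and 1790 of all, the block 2 pump, 4 lysosomal and 2498 of all, and the TPM scales 0 pump, 0 lysosomal and 575 (pseudocount 1) or 538 (0.1) of all, with a pump median of -0.034 on either. For KO against WT contralateral, DESeq2 gave 1 lysosomal gene and 660 of all, and the TPM scales 150 and 144 of all. For the ipsilateral side, pump calls were 1 with upper-quartile scaling, 1 with the stricter filter, 3 with DESeq2 and 2 on either TPM scale, and of all genes DESeq2 called 1753 and only the groups compared 196. For the difference of the responses the pump median was -0.052 on either TPM scale, and DESeq2 called 20 genes and the log2(TPM + 0.1) scale 2. The mouse block called none for the difference.

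Leaving out a library or mouse gave 1 to 4 pump calls, 0 to 7 lysosomal calls and 659 to 3610 calls of all genes in WT mice, with a pump median of -0.14 to 0.06 and a lysosomal median of 0.01 to 0.23. Pump calls were 2 without the contralateral library of mouse 296, or without either library of mouse 297, and 1 without both libraries of mouse 297 or of 474; lysosomal calls were 1 without either library of mouse 297 or the contralateral one of 474, and 0 without both libraries of 297 or 474. The ranges in KO mice were 0 to 2 pump, 0 to 1 lysosomal and 2 to 2282 of all genes, with medians of 0.09 to 0.20 and 0.09 to 0.28. Pump calls there were 2 without the ipsilateral library of mouse 298, kept at 1 without both libraries of mouse 298, and 0 in each other such fit; the lysosomal call was lost without any 1 KO contralateral library, without mouse 295 on the ipsilateral side, and without mouse 295 or 300 altogether. For KO against WT contralateral the ranges were 0 pump, 0 lysosomal and 0 to 391 of all genes, with medians of -0.24 to -0.11 and -0.14 to 0.02; ipsilaterally 0 to 1 pump, 0 lysosomal and 0 to 1351 of all, with medians of -0.12 to 0.02 and -0.15 to 0.10. For the difference no gene was called, and medians were 0.02 to 0.27 and -0.06 to 0.19. The cause of these moves was not tested. Higher and lower calls split 848 to 131 in KO mice against 1545 to 512 with DESeq2 and 383 to 192 on log2(TPM + 1), 13 to 220 for KO against WT contralateral against 121 to 539 with DESeq2, and 675 to 308 ipsilaterally against 342 to 338 on log2(TPM + 1).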
